A study of Mus musculus with 24 samples.

Results

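The 10 genes described here encode C-type lectin receptors of myeloid cells and platelets, and they were chosen by name from the genes on the array. They are *Clec4a1*, *Clec4a2*, *Clec4a3*, *Clec4d*, *Clec4e*, *Clec4n*, *Clec5a*, *Clec7a*, *Clec12a* and *Clec1b*, 10 of 29742 gene names, with 12 of 39429 probes. Levels were measured in whole blood of male C57BL/6J mice, 1 mouse per array with a single dye (Cy3), in 4 groups of 6 mice. Young unirradiated and young irradiated mice were 2 months old, and old unirradiated and old irradiated mice were 21 months old. The irradiated groups received 4 Gy of x-rays to the whole body, and the unirradiated groups were sham-treated controls without a dose. All blood was taken 24 h after exposure by cardiac puncture, lysed in PAXgene solution and depleted of globin RNA before labelling. Each value is a log2 signal relative to the median of all spots of the same array that are not controls, so a difference of 1 is a doubling against that median.

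C-type lectin receptors are surface proteins that bind sugars, lipids and other structures of microbes, and in some cases material from dying cells. Dectin-1 (*Clec7a*, beta-glucan), dectin-2 (*Clec4n*, alpha-mannan), Mincle (*Clec4e*, mycobacterial glycolipid and a nuclear protein set free by dead cells) and MCL (*Clec4d*, the partner of Mincle) activate the kinase Syk, the last 3 through the adaptor FcRgamma (*Fcer1g*). Syk then acts through CARD9, BCL10 and MALT1 on NF-kB, which induces cytokines. MDL-1 (*Clec5a*) works with the adaptor DAP12 (*Tyrobp*). DCIR (*Clec4a2*) and MICL (*Clec12a*) carry an inhibitory motif that recruits the phosphatases SHP-1 (*Ptpn6*) and SHP-2 (*Ptpn11*), and *Clec4a1* and *Clec4a3* are close relatives of DCIR. CLEC-2 (*Clec1b*) is best known from platelets, where it binds podoplanin.

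All 12 probes lie on chromosome 6 in the mm9 build used by the array files. The *Clec4* probes run from *Clec4a1* (chr6:122884578-122884637) through *Clec4a3*, *Clec4a2*, *Clec4n* and *Clec4d* to *Clec4e* (chr6:123232878-123232937). A second run holds *Clec12a* (chr6:129314880-129314939), the 3 probes of *Clec1b* and *Clec7a* (chr6:129411739-129411798), while *Clec5a* lies apart (chr6:40525116-40525175). The exon or untranslated region that each probe covers was not analysed here. The 250 bases before the RefSeq start of transcription (GRCm38.p6) are shown for the 3 receptors that rose most after irradiation in young mice. Capitals mark GAGGAA on either strand, the core bound by ETS factors such as PU.1, and AGATAA or TGATAA on either strand, the core bound by GATA factors.
Clec4d (chr6:123261857-123262106, plus strand): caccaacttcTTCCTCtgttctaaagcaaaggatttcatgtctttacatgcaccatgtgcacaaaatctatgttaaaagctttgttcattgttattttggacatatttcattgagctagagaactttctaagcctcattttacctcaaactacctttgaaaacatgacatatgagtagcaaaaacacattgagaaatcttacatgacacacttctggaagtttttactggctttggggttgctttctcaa
Clec4e (chr6:123289872-123290121, minus strand): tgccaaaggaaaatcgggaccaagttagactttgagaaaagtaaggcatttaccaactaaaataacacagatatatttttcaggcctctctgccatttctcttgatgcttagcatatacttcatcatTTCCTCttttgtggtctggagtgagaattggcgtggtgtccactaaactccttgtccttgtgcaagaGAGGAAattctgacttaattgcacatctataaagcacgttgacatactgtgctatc
Clec1b (chr6:129397047-129397296, plus strand): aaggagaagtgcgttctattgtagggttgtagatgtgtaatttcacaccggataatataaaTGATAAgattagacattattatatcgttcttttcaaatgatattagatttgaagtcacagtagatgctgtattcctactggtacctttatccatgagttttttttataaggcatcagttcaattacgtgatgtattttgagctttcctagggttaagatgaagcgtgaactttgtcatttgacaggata
The table of promoters held 9 of the 10 genes, with 11 start sites, and did not hold *Clec4n*. GAGGAA was present in 8 of these 11 windows, before at least 1 start of 7 of the 9 genes, and in 23.3% of all 32851 windows of this length. The windows of *Clec7a* overlap and hold the same match. A GATA core was present in 1 of the 11 windows, that of *Clec1b*, and in 16.6% of all windows. The windows of *Clec4a2* and the first start of *Clec4a3* held neither. A match is a run of letters and not a measured binding site.

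Of the 10 genes, 8 passed the filters and were tested among 17802 genes with limma, two-sided. Genes with p under 0.005 and a Benjamini-Hochberg adjusted p under 0.05 over all genes are termed DEGs. *Clec5a* was well above background on 4 of 24 arrays and *Clec12a* on 0, and both failed the filter on dim probes. *Clec4a2* passed that filter, although it was well above background on 4 of 24 arrays. The other 7 genes were well above background on all 24 arrays, and no probe was saturated. Arrays with the same scan time were taken as 1 slide, which gave 6 slides with 4 arrays on each. Most slides held mice of a single treatment, and in each age a single slide held both, so treatment was also largely tied to slide. With slide as a fixed block 1820 genes were DEGs after irradiation in young and 496 in old mice, against 6297 and 4428 without it. Old and young mice shared neither a slide nor a day of scanning, so age cannot be told apart from slide and scan day. Blood markers such as *Hba-a1* (haemoglobin), *Pf4* (platelets), *Cd79b* (B cells) and *Cd3e* (T cells) were well above background on 24 of 24 arrays. The labels do not pair mice across groups, and precision is limited by having 6 mice in each.

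Old irradiated replicates 4 and 6 had the lowest median signals, 8.66 and 8.84, against 14.4 to 44.8 on the other 22 arrays. In these mice the summed erythroid marker level was 17.82 and 17.84, against 15.09 to 16.91 in all other mice (log2). Liver-type transcripts also differed between irradiated mice of both ages. The summed hepatocyte marker level was 14.32, 14.45 and 14.83 in old irradiated replicates 2, 3 and 5, 12.02 in replicate 1 and 9.44 and 9.34 in replicates 4 and 6. It was 14.43, 15.55 and 14.56 in young irradiated replicates 2, 4 and 5 and 8.98 to 9.17 in replicates 1, 3 and 6. In unirradiated mice it ranged from 8.07 to 11.66 in young mice, highest in replicate 5, and from 9.15 to 10.95 in old mice, highest in replicate 4. Young irradiated replicates 2 and 5 and old unirradiated replicates 1 and 6 were close to each other. The spread of their differences over 165 probes with repeat spots was 0.133 and 0.12, compared with 0.0926 to 0.1 between repeat spots of the same arrays. For old mice, results are given with and without replicates 4 and 6, and without replicates 2, 3 and 5 where that changed a call or a direction or moved a value by over 1.5 times.

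**Figure D1:**
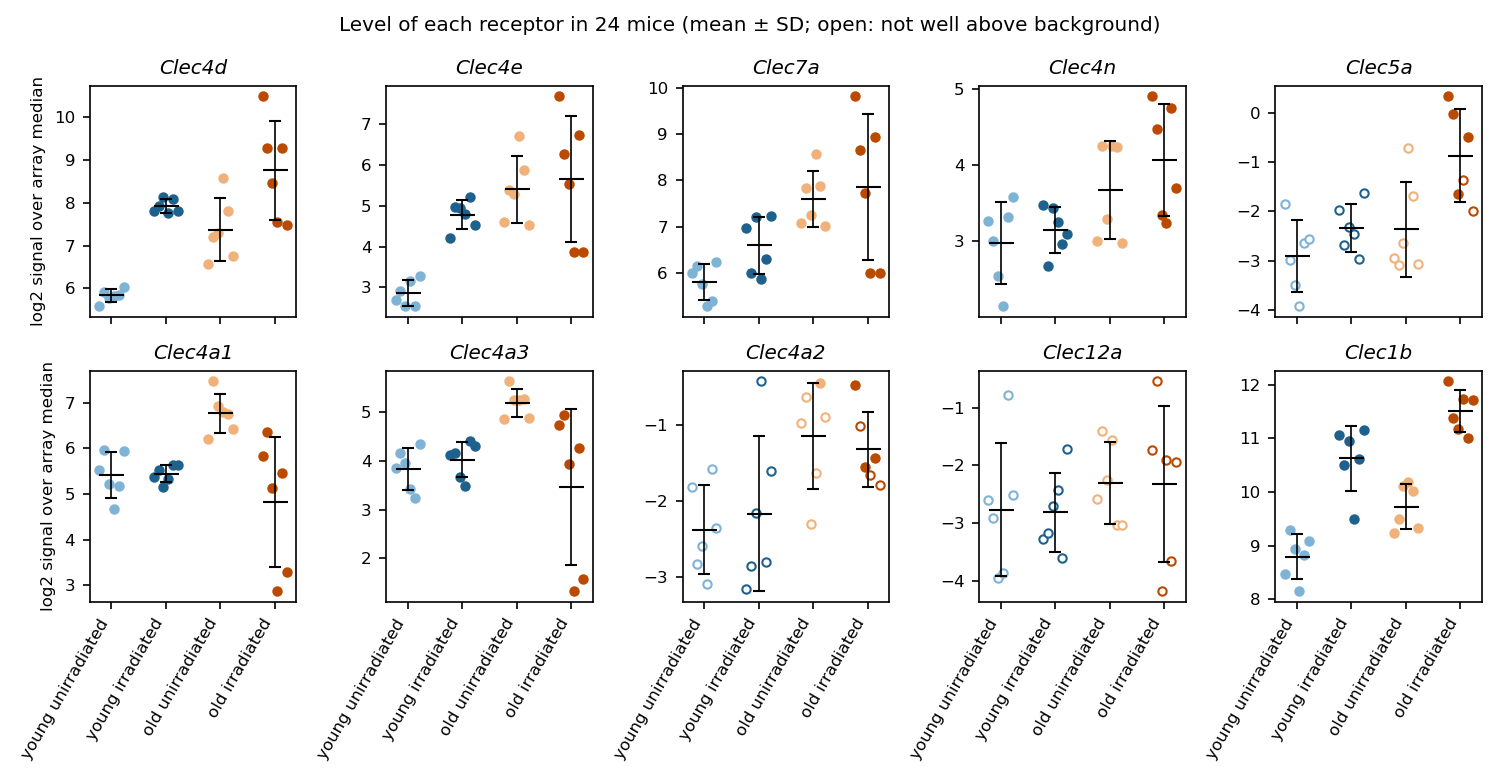
Level of each of the 10 receptors (log2 signal over the array median, y axis, own scale per panel) in the 4 groups of 6 mice, 1 point per mouse, with the mean and SD. Open points are not well above background. *Clec4d* of young mice lay between 5.58 and 6.04 before and between 7.77 and 8.14 after irradiation, whereas *Clec4a1* and *Clec4a3* of irradiated old mice spread widely.

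The first comparison asked how the receptors responded to irradiation in young mice. *Clec4d*, *Clec4e* and *Clec1b* rose, each more than 3-fold, and no receptor fell among the 8 tested. The 3 genes are 3 of 8, read against 14.3% of all genes that rose and 21.1% that fell as DEGs. The median log2 difference of the 8 receptors was 0.50, compared with -0.20 over all genes. Levels before and after irradiation were fully separate for the same 3 receptors, and for 24.7% of all genes.

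*Clec4d* (MCL) was the most even of the receptors in young mice. Unirradiated mice had a lowest, median and highest level of 5.58, 5.84 and 6.04 (log2), and irradiated mice of 7.77, 7.86 and 8.14. The lowest irradiated mouse thus lay above the highest unirradiated mouse by more than the whole range of either group. The mean rose from 5.83 ± 0.153 to 7.92 ± 0.163 (SD, n = 6 each), a log2 difference of 2.09 or a 4.25-fold increase (SE 0.13, limma adjusted p = 4.78e-07). Within the slide that held mice of both treatments, 2 against 2, the log2 difference was 1.92.

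*Clec4e* (Mincle), which lies next to *Clec4d* in the genome, moved by a similar amount. Its lowest, median and highest levels were 2.54, 2.81 and 3.27 in unirradiated mice and 4.22, 4.86 and 5.22 in irradiated mice (log2). All 6 irradiated mice were above all 6 unirradiated mice. The mean rose from 2.86 ± 0.314 to 4.78 ± 0.355 (SD, n = 6 each), a log2 difference of 1.92 or a 3.79-fold increase (SE 0.198, limma adjusted p = 1.51e-05), and the difference was 1.69 within the shared slide.

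*Clec1b* (CLEC-2) was measured by 3 probes. With the brightest of them (A_55_P1962011), unirradiated mice had levels of 8.15, 8.88 and 9.30 (lowest, median, highest; log2) and irradiated mice of 9.50, 10.78 and 11.15. The groups did not overlap, although young irradiated replicate 4 was lower than the other 5 irradiated mice. The mean rose from 8.79 ± 0.418 to 10.63 ± 0.607 (SD, n = 6 each), a log2 difference of 1.84 or a 3.57-fold increase (SE 0.283, limma adjusted p = 0.000234). The other probes gave log2 differences of 1.90 (A_55_P1992617) and 1.93 (A_55_P1962010), the latter with 5 of 6 irradiated mice above all unirradiated mice. For *Clec4d*, *Clec4e* and the brightest *Clec1b* probe the two-sided exact permutation test gave p = 0.00216, the lowest value possible for groups of 6.

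The remaining receptors did not pass the thresholds in young mice. *Clec7a* (dectin-1) was 5.81 ± 0.396 before and 6.60 ± 0.615 after irradiation (SD, n = 6 each), a log2 difference of 0.79 (SE 0.281, limma adjusted p = 0.0338, exact permutation p = 0.0346), with 4 of 6 irradiated mice above all unirradiated mice. *Clec4n* (dectin-2) differed by 0.18, *Clec4a3* by 0.19 and *Clec4a1* by 0.03 on the log2 scale, with SEs of 0.243, 0.224 and 0.216. For these 3 genes the sign turned with another scaling of the arrays, at -0.03 for *Clec4n*, -0.02 for *Clec4a3* and -0.19 for *Clec4a1*. *Clec4a2* was not well above background in any of the 12 young mice, so no fold is given.

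**Figure D2:**
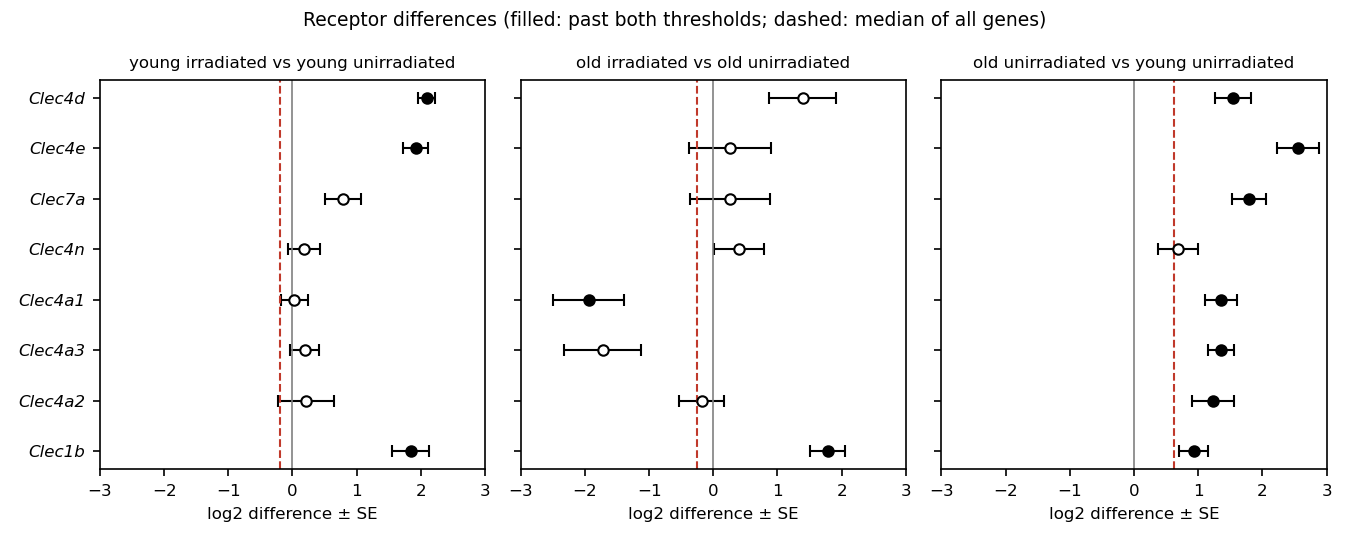
Log2 difference (x axis, points with SE) of the 8 tested receptors in the 3 comparisons between groups. Filled points passed both thresholds, and the dashed line is the median of all genes. *Clec4d*, *Clec4e* and *Clec1b* stand apart from the other receptors in young mice, *Clec1b* and *Clec4a1* passed in old mice, and 7 of 8 receptors passed between the ages.

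The second comparison was the same contrast in old mice. *Clec1b* rose and *Clec4a1* fell, and the other 6 tested receptors were not DEGs. Against these counts of 1 and 1 of 8, 7.49% of all genes rose and 17.4% fell as DEGs in old mice. The median log2 difference was 0.26 for the receptors and -0.25 for all genes. Only *Clec1b* among the 8 receptors had groups that did not overlap, as had 22.5% of all genes.

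In unirradiated old mice the lowest, median and highest level of *Clec1b* was 9.24, 9.75 and 10.18 (log2), and in irradiated old mice it was 11, 11.55 and 12.06. Every irradiated old mouse was above every unirradiated one, replicates 4 and 6 included. The mean rose from 9.73 ± 0.419 to 11.51 ± 0.396 (SD, n = 6 each), a log2 difference of 1.78 or a 3.44-fold increase (SE 0.273, limma adjusted p = 0.000768). It was 1.68 without replicates 4 and 6 (limma adjusted p = 0.000795) and 2.05 within the slide with both treatments. *Clec1b* was a DEG in 6 of 7 scalings and not with normexp background correction (limma adjusted p = 0.0699), nor with slide as a fixed block (limma adjusted p = 0.0528).

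*Clec4a1*, a relative of DCIR, was at 6.21, 6.77 and 7.46 (lowest, median, highest; log2) in unirradiated old mice. The irradiated old mice fell into a lower pair, 2.87 and 3.29 in replicates 4 and 6, and 4 mice between 5.14 and 6.35. Means were 6.76 ± 0.433 without and 4.82 ± 1.42 with irradiation (SD, n = 6 each), a log2 difference of -1.94, which is 3.83-fold lower (SE 0.552, limma adjusted p = 0.0164). Without replicates 4 and 6 it was -1.07 and still a DEG (limma adjusted p = 0.0102), without replicates 2, 3 and 5 it was -2.76 (limma adjusted p = 0.00292), and it was -1.55 and not a DEG without replicate 4 alone. Within the slide with both treatments the log2 difference was -0.49. Leaving out single arrays ended the call for 8 of the 12 arrays, with limma adjusted p up to 0.0382. *Clec4a1* was a DEG in 3 of 7 scalings, with log2 differences from -2.15 to -1.08. With the 75th percentile it was -1.64 and not a DEG (limma adjusted p = 0.0215).

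*Clec4a3*, the neighbour of *Clec4a1*, had the same 2 low mice. It was 5.18 ± 0.287 in unirradiated and 3.46 ± 1.59 in irradiated old mice (SD, n = 6 each), with 1.33 and 1.59 in replicates 4 and 6 and 3.93 to 4.94 in the other 4. The log2 difference of -1.72 had a limma adjusted p of 0.0394, but its p of 0.0126 missed the threshold of 0.005. It was -0.72 without replicates 4 and 6 and -0.23 within the slide with both treatments. It became a DEG without replicates 2, 3 and 5 (-2.63, limma adjusted p = 0.00557), without replicate 2 alone (-2.01, limma adjusted p = 0.0215) and in 1 fit of all 24 arrays (-1.72, limma adjusted p = 0.00444).

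*Clec4d*, *Clec4e* and *Clec7a* spread widely in irradiated old mice, and replicates 4 and 6 were again low. *Clec4d* was at 7.47, 8.87 and 10.49 (lowest, median, highest; log2) in irradiated and at 6.58, 7.24 and 8.59 in unirradiated old mice, so 3 of 6 irradiated mice lay above all unirradiated mice. Its log2 difference of 1.39 (SE 0.518) had a limma adjusted p of 0.0519. *Clec4d* was a DEG in 2 of 7 scalings, with differences from 1.18 to 1.96, among them the 75th percentile (1.69, limma adjusted p = 0.0171). Relative to the array median and without replicates 4 and 6 the difference was 2.01 and a DEG (limma adjusted p = 0.00363), and it was 2.60 within the slide with both treatments. *Clec4e* differed by 0.26 (SE 0.643), by 1.15 without replicates 4 and 6 (limma adjusted p = 0.069) and by 1.76 within that slide. *Clec7a* also differed by 0.26 (SE 0.623), by 1.18 without these replicates (limma adjusted p = 0.0327) and by 1.79 within the slide. Without replicates 2, 3 and 5 the differences were -0.26 for *Clec4e* and -0.33 for *Clec7a*, and neither passed. In the 4 other irradiated old mice *Clec4e* was between 5.53 and 7.68 and *Clec7a* between 7.72 and 9.81, compared with 3.88 and 3.86 for *Clec4e* and 6.00 in both for *Clec7a* in replicates 4 and 6.

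*Clec4n* was 3.67 ± 0.642 in unirradiated and 4.07 ± 0.731 in irradiated old mice (SD, n = 6 each), a log2 difference of 0.40 that did not pass the test (SE 0.388, limma adjusted p = 0.439). *Clec5a* (MDL-1) was well above background in 4 of 6 irradiated old mice, replicates 1, 2, 3 and 5, and in none of the other 20 mice (18 in the other groups, and replicates 4 and 6). Its levels in these 4 mice were 0.34, -0.02, -1.64 and -0.49 (log2). No fold is given, because the mean of irradiated old mice was under the dimmest signal well above background on arrays of unirradiated old mice. *Clec12a* (MICL) was not well above background in any group, and *Clec4a2* was so in 3 irradiated and 1 unirradiated old mice.

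**Figure D3:**
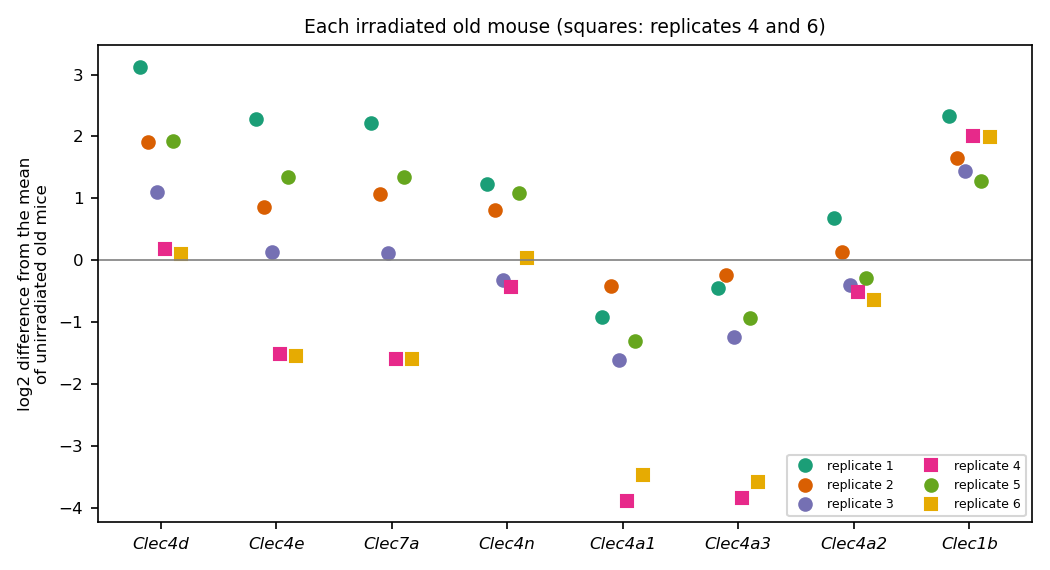
Log2 difference (y axis) of each irradiated old mouse from the mean of the 6 unirradiated old mice, for the 8 tested receptors. Squares are replicates 4 and 6, which lay below the other mice for *Clec4d*, *Clec4e*, *Clec7a*, *Clec4a1* and *Clec4a3* and within the range of the others for *Clec1b* (1.27 to 2.33).

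Old and young responses were then set against each other in 1 fit over all 24 arrays. No receptor passed, and no gene of the 17802 did (limma interaction, 0 DEGs or 0%, with 4191 genes at an unadjusted p under 0.05). The random variance test and limma with trend and robust variance also gave 0, and 3 other scalings gave 8, 7 and 9 genes. Array weights gave 272 genes and leaving out old irradiated replicate 3 gave 1050, with no receptor among them. Without old irradiated replicates 2, 3 and 5, the mice high in hepatocyte markers, 6043 of 17802 genes passed, *Clec4a1* (-2.79) and *Clec4a3* (-2.82) among them. With all arrays the largest differences between the responses were -1.97 for *Clec4a1* (SE 0.615, limma adjusted p = 0.129), -1.91 for *Clec4a3* (SE 0.664, limma adjusted p = 0.135) and -1.67 for *Clec4e* (SE 0.703, limma adjusted p = 0.171), old minus young. Without old irradiated replicates 4 and 6 they were -1.10, -0.91 and -0.77. For *Clec1b* the difference was -0.05 (SE 0.391, limma adjusted p = 0.936). With all arrays, the DEGs of a single age are therefore not shown to respond differently in the other age, and the count over all genes depended on which irradiated old mice were included.

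The third comparison was between unirradiated old and young mice, and it depended on how the arrays were scaled to each other. Relative to the array median, 7 of the 8 receptors were higher in old mice and *Clec4n* did not pass. Of all genes 48.4% were higher and 15.4% lower, and the groups did not overlap for 48.6% of them. The median of all genes was 0.63 above that of young mice, against 1.35 for the receptors. *Clec4e* and *Clec7a* were farthest above this median with this scaling.

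*Clec4e* was at 4.52, 5.35 and 6.72 (lowest, median, highest; log2) in old and at 2.54, 2.81 and 3.27 in young unirradiated mice. The groups did not overlap, and the log2 difference of 2.55 (5.84-fold, SE 0.324, limma adjusted p = 2.73e-05) was 1.92 above the median of all genes. Under 6 other scalings it lay between 1.46 and 2.05, and it was a DEG in 6 of 7 scalings in all, the exception being normexp background correction (limma adjusted p = 0.375), with which 0 of 11800 genes were DEGs.

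*Clec7a* was at 7.01, 7.53 and 8.57 in old and at 5.28, 5.88 and 6.24 in young unirradiated mice (lowest, median, highest; log2). Again the groups did not overlap. The log2 difference was 1.79 (3.46-fold, SE 0.271, limma adjusted p = 8.34e-05), which is 1.16 above the median of all genes, and it was between 1.09 and 1.79 over the 7 scalings, a DEG in 6 of them and not with normexp (limma adjusted p = 1).

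The other receptors were closer to the median of all genes. The log2 difference was 1.54 for *Clec4d* (SE 0.282, limma adjusted p = 0.000307), 1.35 for *Clec4a1* (SE 0.251, limma adjusted p = 0.000344) and 1.35 for *Clec4a3* (SE 0.204, limma adjusted p = 8.12e-05), and old and young mice did not overlap for any of these 3 genes. Relative to the median of all genes they were 0.91, 0.72 and 0.72 higher. Over the 7 scalings *Clec4d* was a DEG in 2, *Clec4a1* in 2 and *Clec4a3* in 5, with log2 differences from 0.81 to 1.54, from 0.64 to 1.35 and from 0.58 to 1.35. *Clec1b* differed by 0.93 (SE 0.229, limma adjusted p = 0.00229), with 5 of 6 old mice above all young mice, and was a DEG in 1 of 7 scalings. *Clec4n* differed by 0.69 (SE 0.31, limma adjusted p = 0.0555) and by 0.04 to 0.19 with the other scalings. *Clec4a2* passed with a difference of 1.23 (limma adjusted p = 0.00421), but it was well above background in 0 of 6 young and 1 of 6 old unirradiated mice, and no fold is given. No receptor had a negative difference under any of the 7 scalings.

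**Figure D4:**
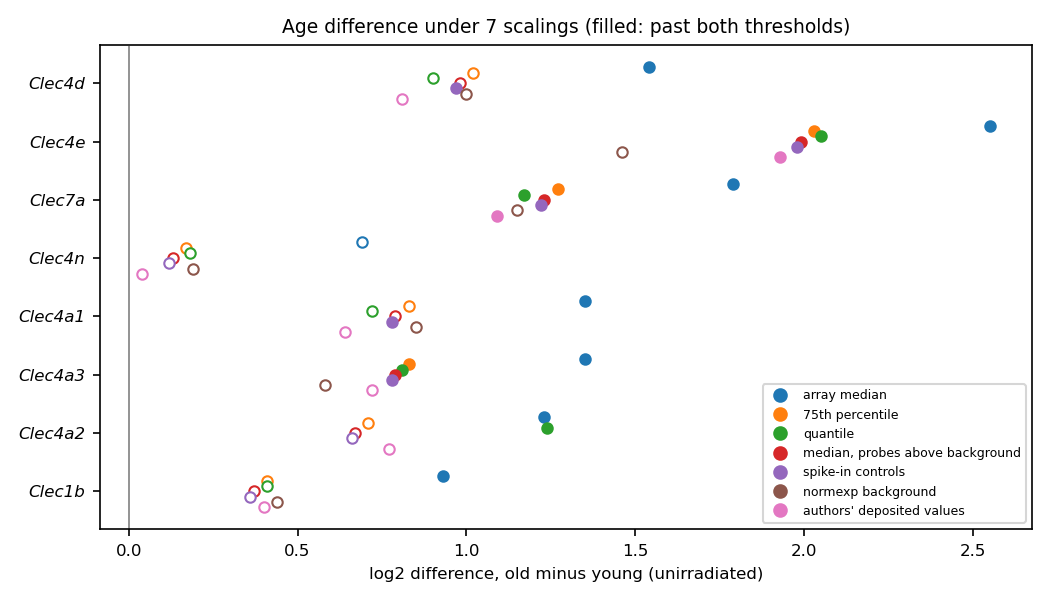
Log2 difference between unirradiated old and young mice (x axis, old minus young) of the 8 tested receptors under 7 scalings of the arrays, filled where both thresholds were passed. All points lie above 0, with *Clec4e* between 1.46 and 2.55 and *Clec7a* between 1.09 and 1.79.

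Blood is a mixture of cells, and fewer cells of a type cannot be told apart from less RNA per cell in these data. Markers of the cells that carry the receptors were therefore measured beside them. Of 12 platelet markers without *Clec1b*, all 12 rose after irradiation in young mice and all 12 in old mice, with median log2 differences of 1.92 and 1.90. Over all genes 14.3% rose in young and 7.49% in old mice. The study reported no appreciable change of platelet counts after irradiation at either age. The part of platelet number in these rises was not tested. *Pf4* rose by 1.40 and 1.32, *Ppbp* by 1.41 and 1.54 and *Treml1* by 1.78 and 1.74. The summed platelet marker level was 12.03 to 12.83 in young unirradiated, 13.33 to 14.76 in young irradiated, 12.90 to 13.92 in old unirradiated and 14.44 to 15.53 in old irradiated mice (log2). The level of *Clec1b* minus this level, a ratio within an array that a constant scale factor leaves unchanged, was -3.74 ± 0.129, -3.49 ± 0.195, -3.65 ± 0.0525 and -3.52 ± 0.257 in the same order of groups (SD, n = 6). These ratios overlapped between all groups compared. The ratios were chosen after the values had been seen, and no test was made of them.

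*Clec4d*, *Clec4e* and *Clec7a* were set beside neutrophil markers. Of 15 such markers, 6 rose in young and 0 in old mice after irradiation, and 9 were higher and 1 lower in old than in young unirradiated mice (8 higher and 2 lower with the 75th percentile). Over all genes 14.3% rose in young and 7.49% in old mice. Between unirradiated old and young mice 48.4% of all genes were higher (10.8% with the 75th percentile) and 15.4% lower. *S100a9* rose by 1.64 and *S100a8* by 1.67 in young mice, whereas *Csf3r* (the G-CSF receptor) differed by -0.17. The summed level was 10.74 to 11.91 in young unirradiated, 12.14 to 13.57 in young irradiated, 12.53 to 14.13 in old unirradiated and 12.56 to 15.06 in old irradiated mice, where replicates 4 and 6 had the lowest values, 12.56 and 12.78. Relative to these markers within each array, *Clec4d* was 0.71 higher after irradiation in young mice, with overlapping groups, and 0.84 higher in old mice, where all 6 irradiated mice lay above all unirradiated mice. *Clec4e* was 0.54 higher in young mice and 0.29 lower in old mice by the same measure, with overlapping groups. *Clec7a* was 0.59 lower in young irradiated mice, without overlap. Between old and young unirradiated mice the ratio differed by 0.06 for *Clec7a*, 0.81 for *Clec4e* and -0.2 for *Clec4d*, with overlapping groups. Relative to monocyte markers these age differences were 0.9, 1.65 and 0.64, without overlap only for *Clec4e*. The part of neutrophil or monocyte number in these results was not tested.

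Monocyte and macrophage markers were also different. The counts below are read against the share of all genes. In young mice 14.3% of all genes rose and 21.1% fell, and in old mice 7.49% rose and 17.4% fell. Of 14 monocyte markers, 6 rose and 2 fell in young mice, and 1 rose and 5 fell in old mice. Their median log2 differences were 0.36 and -1.2. *Fn1* rose by 2.84 in young mice (limma adjusted p = 0.000965), and *F13a1* rose by 1.64 in young and 1.45 in old mice. Of 14 tested macrophage markers, 12 rose in young mice and 2 rose and 1 fell in old mice, and *Cd5l* rose by 5.43 in young mice. The summed monocyte level was between 9.82 and 11 in young unirradiated and between 11.26 and 12.33 in young irradiated mice, and it was 10.41 and 10.37 in old irradiated replicates 4 and 6, against 11.12 to 12.06 in the other 4. Relative to monocyte markers within each array, *Clec4a1* was lower by 1.55 in young irradiated mice, with overlapping groups, and by 2.00 in old irradiated mice, without overlap. *Clec4a3* was lower by 1.38, with overlap, and by 1.78, without overlap. The brightest markers weigh most in the summed level, so these ratios are not levels per monocyte. The median summed level was 10.28 and 12.065 in young and 11.29 and 11.42 in old mice, unirradiated first. Relative to the array median *Clec4a1* differed by 0.03 and -1.94 and *Clec4a3* by 0.19 and -1.72, young mice first. The medians of the monocyte markers were 0.36 and -1.2. Of 10 B cell markers, 10 fell in young and 9 in old mice. Of 11 T cell markers, 9 fell in young and 2 in old mice, the latter near the 17.4% of all genes that fell. Of 11 tested hepatocyte markers, 1 rose in young and 9 in old mice, of 10 tested dendritic cell markers 2 rose and 5 fell in young and 2 fell in old mice, of 9 NK cell markers 5 rose in young and 0 in old mice, and of 10 erythroid markers 6 fell in young and 0 in old mice.

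**Figure D5:**
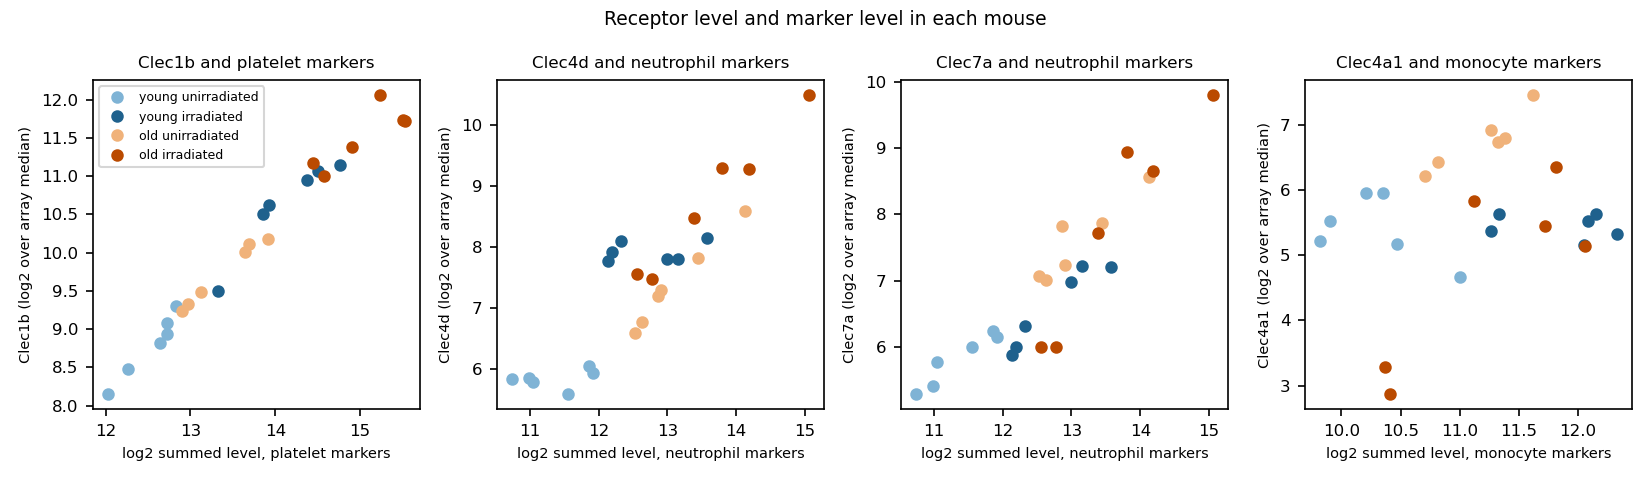
Level of *Clec1b*, *Clec4d*, *Clec7a* and *Clec4a1* (y axes, log2 over the array median) against the summed level of platelet, neutrophil or monocyte markers (x axes, log2) in each of 24 mice, coloured by group. The difference between *Clec1b* and the platelet level stays between -3.88 and -3.18 in all 24 mice, whereas *Clec4a1* minus the monocyte level spans -4.58 to -4.16 in unirradiated old mice and -7.53 to -5.28 in irradiated old mice.

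The genes that carry the receptors' signal were examined from lists written with earlier results of these data known. Of 15 adaptors and kinases, 4 rose and 1 fell in young mice and 1 rose and 1 fell in old mice, with a median log2 difference of 0.21 and 0.02. Over all genes 14.3% rose and 21.1% fell in young mice and 7.49% rose and 17.4% fell in old mice, so the counts in old mice were at or under the background. *Fcer1g*, the adaptor of Mincle, MCL and dectin-2, rose in young mice by 1.40 (SE 0.196, limma adjusted p = 0.000126) and in old mice by 1.13 (SE 0.295, limma adjusted p = 0.011). *Tyrobp*, which encodes DAP12, rose by 1.05 in young mice (SE 0.139, limma adjusted p = 8.46e-05), and its difference in old mice was 0.08 (SE 0.554, limma adjusted p = 0.927). *Lyn* and *Lcp2* (SLP-76) rose by 1.04 and 1.25 in young mice. *Plcg2*, a phospholipase that acts after Syk, had log2 differences of -0.50 and -1.22 and fell in both ages. *Hcst* and *Vav1* had differences of 0.21 and -0.34 in young and of 0.07 and -0.44 in old mice, and did not pass. The median of the list in old mice changed sign with scaling, at -0.12 with quantile normalization and -0.19 with spike-in controls.

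Of 14 genes of the CARD9 complex and NF-kB, 5 fell and 0 rose in young mice and 6 fell and 0 rose in old mice, with median log2 differences of -0.47 and -0.88. Over all genes 21.1% and 17.4% fell, and the other 9 and 8 genes of the list did not pass. *Malt1* (the paracaspase of the complex) fell by 1.37 in young and 2.07 in old mice. *Nfkb2*, *Rel* and *Relb*, which encode NF-kB subunits, had log2 differences of -1.29, -1.65 and -1.05 in young and of -2.13, -2.01 and -1.0 in old mice, all past the test. *Ikbkb*, the kinase that frees NF-kB, fell by 0.67 and 1.78, and *Nfatc2* fell by 1.03 in old mice. *Rela* and *Bcl10* did not pass in either age, with differences of -0.30 and 0.49 in young and -0.39 and 0.20 in old mice. B cells also express several of these genes, and the B cell markers above fell in the same mice, but their part in the fall was not tested. With normexp background correction 0 of 12 genes tested were DEGs in either age, where 837 of 11800 genes in young and 8 in old mice were.

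Of 4 listed tyrosine and inositol phosphatases, *Ptpn11* rose by 1.69 in young and 1.27 in old mice. *Inpp5d* (SHIP-1) and *Inpp5b*, an inositol phosphatase not known to be recruited by inhibitory motifs, rose by 0.60 and 0.80 in young mice, and *Ptpn6* fell by 0.81 there. With quantile normalization 1 of 3 tested rose and 1 fell, and the median in young mice was -0.61 instead of 0.70. Of the cytokine and inflammasome genes that these receptors can induce, 10 of 17 were bright enough to test, and 1 rose and 1 fell in young mice and 0 in old mice. Over all genes 14.3% rose and 21.1% fell in young mice and 7.49% and 17.4% in old mice, so these cytokine gene counts were under the background. *Pycard*, the inflammasome adaptor, rose by 1.30 in young mice (limma adjusted p = 0.000933) and differed by -0.64 in old mice. The gene that fell was *Nos2* (-0.84, limma adjusted p = 0.00117), which was named after its values were seen. *Il1b*, *Ccl3* and *Ccl4* had differences of 1.07, 0.87 and 0.95 in young mice and 0.71, -0.05 and 0.65 in old mice without passing the test, and *Casp8* had 0.02 and -1.08.

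Between unirradiated old and young mice, 13 of 15 adaptors and kinases, 11 of 14 CARD9 and NF-kB genes, 4 of 4 phosphatases and 6 of 10 cytokine genes were higher in old mice relative to the array median, and 0 were lower. The median log2 differences of 1.0, 0.92, 0.88 and 0.75 compare with 0.63 for all genes. These counts fell with other scalings, for example to 5 of 15, 5 of 13, 0 of 3 and 2 of 9 with the 75th percentile, where 2 cytokine genes were lower. The share of all genes called higher also fell, from 48.4% relative to the array median to 10.8% with the 75th percentile. *Il1b* differed by 2.19 and *Fcer1g* by 1.26 relative to the array median.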

How the data were processed

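Blood RNA of 24 mice was measured on single-colour Agilent mouse arrays. The authors deposited the intensity of each spot, corrected for background by Agilent Feature Extraction 12.0.2 and not scaled between arrays, and a table of log2 values that was filtered and normalized before deposit. That table is an alternative here. Non-uniform spots were set to missing, and values were taken as log2 relative to the array's median over 43020 non-control spots. A probe was dropped if at least 25% of its arrays showed a non-uniform spot or a signal not significantly over background (24130 of 39429 stayed). Probes 1.5-fold from their median on at least 20% of the arrays (5 arrays) were kept, and the brightest represented each gene (17802 genes). Each comparison was fitted with limma 3.58.1 (R 4.3.3) on its 12 arrays, the interaction on 24. Single receptors were also tested with exact permutations (924 splits). The tests were tried on simulated data. Marker levels are log2 sums of scaled signals. Other scalings, filters, tests, blocks and left-out arrays were tried. Figures used Matplotlib 3.10.9 in Python 3.11.15. The receptors named are all 10. Of each pathway list the 5 brightest tested genes and any DEG in at least 2 comparisons were named, and of each marker list names come from the 3 brightest. Some genes that this rule names are not reported here. The receptors and lists were chosen with earlier results of these data known.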

Additional observations from a re-analysis of the deposited data

How the results depend on the processing

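In young mice the count of 3 receptors called was within 1.5 times under all alternatives run. In old mice (2 called) it was 1 with spike-in controls, 0 with normexp (7 tested), 4 in 1 fit of 24 arrays, 0 with slide as a fixed block and 1 with the closest arrays counted as 1 sample. With single arrays left out it was at least 1, and *Clec4a3* was called as well without old irradiated replicate 2. Between unirradiated old and young mice (7 called) it was 3 when scaled to the 75th percentile, 4 by quantiles, 3 by the median of well-detected probes (well above background on every array), 0 with normexp and 2 in the deposited values. Of all genes tested, 48.4% were called higher in old mice relative to the array median. This share was 10.8%, 17.2%, 9.08%, 3.29% and 4.45% in the order 75th percentile, quantiles, median of well-detected probes, spike-in controls and deposited values. Of the genes called in either direction, 75.8% were higher relative to the array median, and 28.9%, 44.8%, 24.9%, 12.8% and 17.2% in the same order. For the interaction (0 called) the count of receptors was 2, *Clec4a1* and *Clec4a3*, without old irradiated replicates 2, 3 and 5, where 6043 of 17802 genes passed.

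Differences that changed sign were not called under either setting. In young mice they were -0.14 (quantile), -0.18 (spike-in), -0.19 (deposited) and -0.11 (slide as fixed block) for *Clec4a1*, 0.00 (spike-in), -0.14 (deposited) and -1.04 (slide as fixed block) for *Clec4a2*, -0.02 (spike-in) for *Clec4a3*, and -0.03 (spike-in) and -0.37 (slide as fixed block) for *Clec4n*. With single arrays left out, *Clec4a1* ranged from -0.12 to 0.14 and *Clec4a2* from -0.14 to 0.41. In old mice they were 0.12 (75th percentile), 0.16 (median of well-detected probes), 0.14 (deposited) and 0.03 (without old irradiated replicates 4 and 6) for *Clec4a2*. Without old irradiated replicates 2, 3 and 5, *Clec4e* was -0.26 and *Clec7a* -0.33, and with single arrays left out they ranged from -0.15 to 0.61 and from -0.13 to 0.63, lowest without old irradiated replicate 1. For the interaction, *Clec1b* was 0.24 (75th percentile and median of well-detected probes), 0.22 (slide as fixed block) and 0.27 (without old irradiated replicates 2, 3 and 5), and ranged from -0.28 to 0.08 with single arrays left out. Slide as a fixed block gave 0.96 for *Clec4a2*, 0.68 for *Clec4d*, 0.07 for *Clec4e* and 1.13 for *Clec7a*. The deposited values gave 0.28 for *Clec4a2*, and *Clec7a* was 0.26 with array weights and 0.39 without old irradiated replicates 4 and 6. The cause of these changes was not tested.

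With replicate number as a block the counts were 3, 2, 7 and 0, as without it. Deviations of equally numbered mice correlated between -0.287 and 0.336. Mice with unlike numbers were not compared, so these correlations cannot show whether the numbers pair mice. Leaving out replicates 4 and 6 and merging the closest arrays were chosen after seeing the data. Signal over background limits *Clec5a*, *Clec12a* and *Clec4a2*.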

Other observations

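Other C-type lectin receptors of myeloid cells, from a list of 27 genes of which 16 were tested, were measured beside them. In young mice 9 rose and 1 fell after irradiation, and in old mice 2 rose and 1 fell, with median log2 differences of 1.19 and 0.44. Over all genes 14.3% rose and 21.1% fell in young mice and 7.49% rose and 17.4% fell in old mice. *Olr1*, a receptor of oxidized lipoprotein that was well above background on 19 of 24 arrays, rose by 2.71 in young (SE 0.34, limma adjusted p = 5.86e-05) and by 3.11 in old mice (SE 0.369, limma adjusted p = 0.000244). *Clec4g* rose by 1.27 in young (limma adjusted p = 9.85e-05) and 2.51 in old mice (limma adjusted p = 0.000445). Hepatocyte marker levels differed widely between irradiated mice of both ages, as given above. The part of liver transcripts in the rise of *Clec4g* and in the counts of this list was not tested. *Clec2i* fell by 1.78 and 2.12. *Cd302*, *Clec10a* and *Clec2d* rose by 2.01, 1.10 and 0.93 in young mice and had differences of -0.67, -1.35 and 0.89 in old mice, where none passed. *Mgl2*, the brightest gene of the list, had differences of -0.60 and -0.12 and did not pass. *Clec4b1*, a gene of the same family as *Clec4a1* and *Clec4d*, had differences of -0.24 and 0.97 after irradiation and was lower in old than in young unirradiated mice by 2.35 (limma adjusted p = 1.78e-06), whereas *Clec4d* and *Clec4e* were higher there relative to the array median. Whether the responses of these genes differed between the ages was tested with the interaction, and 0 of 16 passed, where 0 of 17802 genes did.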
